A study of Mus musculus with 12 samples.

Results

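Transcript levels of 33 genes of glycolysis, lactate handling and the pentose phosphate pathway were measured by RNA-seq of mGFP+ osteoblasts, sorted in bulk from the metaphyses of mouse femurs and tibias. The genes were taken by symbol from a fixed list, and all 33 were found among the 32288 genes of the count table. The symbol *Aldoa* has 2 identifiers there, and the one with more counts was used. The other had at most 23 counts in any library. They comprised 2 glucose transporters, 15 glycolytic enzymes, 4 genes of lactate conversion and export, 2 genes of pyruvate entry to mitochondria, 2 genes that set the level of fructose 2,6-bisphosphate, 5 pentose phosphate enzymes and 3 genes of the hypoxia response.

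The 12 libraries fell into 4 groups. Juvenile *Osx*+ osteoblasts (4 libraries, 3 weeks of age) and adult *Osx*+ osteoblasts (4 libraries, 8 weeks of age) came from *Osx-CreERT2*; *mTmG* mice, and each library pooled 2 male mice. *c-Myc* osteoblasts (2 libraries) additionally carried *LSL-tTA* and *Col1a1::TetO-c-Myc*, so that Cre switched on a tet-OFF *c-Myc* transgene, and *c-Myc* + *R172H* osteoblasts (2 libraries) carried *Trp53-LSL-R172H*, a mutant p53 allele, as well. All 4 groups received tamoxifen, which activates the Cre driven from *Osx* and marks the cells with mGFP, as 3 doses in juvenile and adult mice and as 2 doses in the *c-Myc* groups. Cells positive for CD45, Ter119 or CD31 were excluded from the sort. The control cells were taken 2 days after tamoxifen from metaphyses trimmed at about 2 mm, whereas the *c-Myc* groups came from mice of both sexes, given as 5 weeks old at dissection although the sample titles read 3 weeks, and were taken 7 days after tamoxifen with trimming at about 5 mm. These mice had received a tetracycline, which keeps the transgene silent, in the drinking water beforehand. Genotype in the comparisons with juvenile cells therefore cannot be told apart from age, dissection or the tetracycline. The same holds for the number of tamoxifen doses and the interval after them. The sex of the mice differed as well, and pooling of 2 mice is stated only for the control libraries.

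Glycolysis splits glucose into pyruvate in the cytosol, and lactate dehydrogenase turns pyruvate into lactate, which leaves the cell through monocarboxylate transporters. The pentose phosphate pathway branches off at glucose 6-phosphate and supplies NADPH and ribose for nucleotides. Osteoblasts are known for a high rate of aerobic glycolysis, and both the hypoxia-inducible factor HIF-1 and the transcription factor c-Myc are textbook activators of genes in these pathways. HIF-1 binds DNA with a core of A or G followed by CGTG, of which only the form ACGTG was searched here. The E-box CACGTG is bound by c-Myc with its partner MAX.

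Library depth was 9066154 to 15684412 counts. *Myc* was at 39.8 to 52.2 CPM (read counts scaled to library size after TMM, a factor that sets the bulk of genes level between libraries) in the 8 juvenile and adult libraries, 624 and 658 CPM in the *c-Myc* libraries, and 639 and 748 CPM in the *c-Myc* + *R172H* libraries. In what follows, the 4 *c-Myc* libraries are those of both *c-Myc* groups, and the control libraries are the juvenile and adult ones. All 9 osteoblast markers examined had counts in every library, with *Sp7* (the gene for OSX) at 227 to 246 CPM in juvenile and 119 to 193 CPM in the other cells. At adjusted p below 0.05 (edgeR), all 9 were lower in *c-Myc* and in *c-Myc* + *R172H* than in juvenile cells, beside 25.0% and 26.3% of all genes tested. By age 3 of the 9 were higher in juvenile cells, beside 1.89% of all genes tested. The 8 chondrocyte markers were also present: they summed to 8380 to 24800 CPM in juvenile, 33000 to 120000 CPM in adult, 340 and 531 CPM in *c-Myc*, and 160 and 162 CPM in *c-Myc* + *R172H* libraries. All 8 were lower in either *c-Myc* group than in juvenile cells at the same threshold. *Col1a1* alone took 33.4% to 39.1% of the counts in juvenile, 21.4% to 34.1% in adult cells and 5.61% to 11.3% in the *c-Myc* groups, whereas 1 noncoding transcript, *Gm26917*, took 4.70% to 10.5% in control and 26.5% to 29.4% in *c-Myc* libraries. The markers of neutrophils, erythroid and endothelial cells summed to at most 1.24 CPM in any library, and those of lymphocytes to at most 1.49 CPM in control and 12 to 19.3 CPM in *c-Myc* libraries. In the latter *Ighm* alone was at 11.3 to 18.3 CPM, while *Cd79a* was at 0.502 to 1.02 CPM and *Cd79b*, *Ms4a1* and *Cd3e* were at 0 to 0.0457 CPM. Markers of macrophages and osteoclasts summed to 204 to 419 CPM in control and 59.7 to 116 CPM in *c-Myc* libraries, with 1 of 6 tested higher and 1 lower in *c-Myc* than in juvenile cells, and markers of marrow stroma to 315 to 625 and 112 to 197 CPM, with 4 of 4 lower. The part of these cells in the differences of the members was not tested. *Xist*, expressed from the inactive X chromosome of females, was at 234 CPM in *c-Myc* replicate 2 and 212 CPM in *c-Myc* + *R172H* replicate 2, and at most 1.24 CPM elsewhere, including replicate 1 of both *c-Myc* groups (0.0457 and 0.183 CPM). In those low-*Xist* *c-Myc* libraries *Eno1* was at 320 and 286 CPM and *Slc16a1* at 124 and 107 CPM, against at most 83.2 and 34.3 CPM in the juvenile libraries from males. These genes are among the members that rose most with *c-Myc*, and the part of sex in the differences was not tested. The 3 members *Pgk1*, *Pdha1* and *G6pdx* lie on the X chromosome. In sorted bulk cells, fewer cells of a type and less RNA per cell cannot be told apart.

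Per kilobase of annotated exon, the 4 most abundant members in juvenile cells were *Pkm* (67.7 CPM per kb, mean of 4 libraries), the pyruvate kinase of most tissues, *Ldha* (58.5 CPM per kb), the lactate dehydrogenase subunit that favours lactate, *Aldoa* (54.1 CPM per kb), an aldolase, and *Tpi1* (27.5 CPM per kb), the triose phosphate isomerase. In the *c-Myc* group *Ldha* (173 CPM per kb, mean of 2 libraries) and *Pkm* (164 CPM per kb) led, followed by *Aldoa* (101 CPM per kb), *Gapdh* (56.1 CPM per kb) and *Eno1* (55.5 CPM per kb). In the *c-Myc* + *R172H* group *Pkm* (177 CPM per kb) stood above *Ldha* (168 CPM per kb), and *Eno1* (56.7 CPM per kb) above *Gapdh* (48.1 CPM per kb). At the other end, *Eno2*, the enolase typical of neurons, had 0.0591 CPM per kb in juvenile and 0.218 CPM per kb in adult cells, and *Egln3*, a prolyl hydroxylase that marks HIF for degradation, had 0.151 and 0.675 CPM per kb. *Eno2* was too low to be tested in the comparison by age, and *Egln3* was too low in the comparisons with the *c-Myc* groups, so 32 of the 33 members passed the filter each time. The length used counts every annotated exon of a gene, and reads shared with near-identical copies were not counted. The order between genes is therefore approximate. All later levels are in CPM and compare the same gene between libraries.

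The promoters of 32 of the 33 genes were matched by symbol in RefSeq (GRCm38.p6), giving 46 windows, several of which overlap within a gene. In the 250 bases before the start, CACGTG, which reads the same on both strands, was found in 6 of 46 windows (13.0%), against 6.02% of all 32851 windows of that length. These 6 belonged to *Bnip3*, *Hif1a*, *Ldha*, *Pfkfb3*, *Pfkm* and *Slc16a1*. The core ACGTG, read on either strand and contained in every E-box, was found in 17 of 46 windows (37.0%), which came from 14 genes, against 16.6% of all windows, and base composition was not matched. Members such as *Eno1* and *Pfkp*, which move in the comparisons that follow, held neither motif in their windows. The promoters of 4 genes that move there and hold a motif are shown: *Ldha* and *Slc16a1*, which act in succession in lactate release, *Pgam1*, and *Bnip3*. Capitals mark the E-box and the core, the latter on either strand. They are read 5′ to 3′ from RefSeq (GRCm38.p6): *Ldha* from chr7:46845554-46845803 and *Slc16a1* from chr3:104638414-104638663, both on the plus strand, *Pgam1* from chr19:41911621-41911870 on the plus strand, and *Bnip3* from chr7:138909520-138909756 on the minus strand, where 13 bases inside an annotated exon were left out.
Ldha: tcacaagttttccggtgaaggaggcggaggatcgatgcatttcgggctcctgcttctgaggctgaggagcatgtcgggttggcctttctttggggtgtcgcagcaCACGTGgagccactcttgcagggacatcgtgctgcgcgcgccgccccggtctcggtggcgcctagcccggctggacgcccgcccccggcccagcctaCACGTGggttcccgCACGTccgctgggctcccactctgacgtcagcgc
Slc16a1: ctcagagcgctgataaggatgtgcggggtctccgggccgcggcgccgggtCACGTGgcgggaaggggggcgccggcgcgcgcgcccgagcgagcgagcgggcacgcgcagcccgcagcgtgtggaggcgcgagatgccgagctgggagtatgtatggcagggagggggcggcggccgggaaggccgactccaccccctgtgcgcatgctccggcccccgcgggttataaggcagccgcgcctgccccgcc
Pgam1: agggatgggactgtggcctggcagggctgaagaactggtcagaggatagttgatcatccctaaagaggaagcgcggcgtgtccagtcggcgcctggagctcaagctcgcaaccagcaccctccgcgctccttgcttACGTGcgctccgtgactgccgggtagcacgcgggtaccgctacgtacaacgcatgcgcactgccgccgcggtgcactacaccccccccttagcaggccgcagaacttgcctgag
Bnip3: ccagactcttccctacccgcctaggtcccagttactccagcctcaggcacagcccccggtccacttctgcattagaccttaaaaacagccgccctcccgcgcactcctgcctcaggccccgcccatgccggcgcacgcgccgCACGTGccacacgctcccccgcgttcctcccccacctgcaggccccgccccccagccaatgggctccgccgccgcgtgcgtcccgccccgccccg
*Ldha*, which has 2 annotated starts in RefSeq, held 2 E-boxes in the window shown, beginning 145 and 48 bases before the start, and a core on the other strand 34 bases before it, while its other window held neither motif. *Slc16a1* held 1 E-box 200 bases before the start, *Pgam1* a core without an E-box at 114 bases and *Bnip3* 1 E-box at 108 bases. These starts are those of RefSeq. The bases that follow them were found in GENCODE vM21 transcripts for *Slc16a1* and *Bnip3*, but not for *Ldha* and *Pgam1*. A match of letters is a description and does not show that a factor binds there. In the annotation (GENCODE vM21, GRCm38) 6 of the genes described below have these whole gene spans: *Pfkp* at chr13:6579768-6648777, *Slc2a1* at chr4:119108711-119137983, *Eno1* at chr4:150236721-150248879, *Pgam1* at chr19:41911923-41918660, *Slc16a1* at chr3:104638668-104658462 and *Hif1a* at chr12:73901375-73947530.

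**Figure D1:**
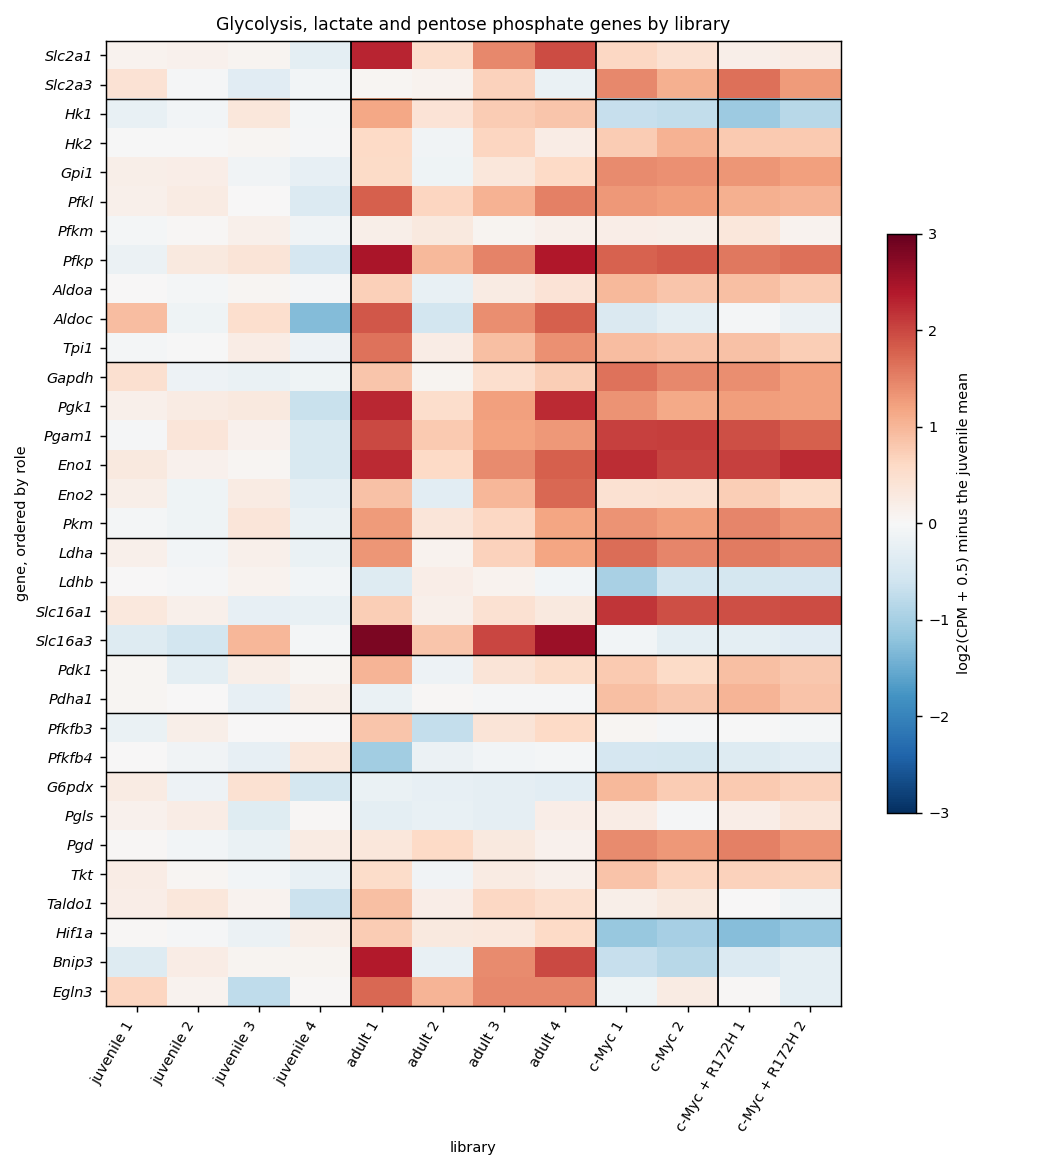
Level of the 33 genes in each library, as log2(CPM + 0.5) minus the mean of the 4 juvenile libraries (red higher, blue lower); rows are ordered by role, with black lines between roles and between groups. Adult libraries 1 and 4 are the reddest of the adult group, adult library 2 is close to the juvenile libraries, and the 4 *c-Myc* libraries resemble each other; in the *c-Myc* columns *Hk1* and *Pfkfb4* are blue on this scale but positive when libraries are scaled by their totals.

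The first comparison asked how juvenile osteoblasts differ from adult ones. A gene is said to be called where its adjusted p is below 0.05, and a log2 fold change of -1 is a 2-fold lower level in the group named first. Every called member differed in the same direction: 11 of the 32 members tested were lower in juvenile cells and 0 were higher at adjusted p below 0.05 (edgeR quasi-likelihood test with Benjamini-Hochberg adjustment over 11345 genes), whereas 3.23% of all genes tested were called lower and 1.89% higher. The members' median log2 fold change, juvenile over adult, was -0.53, beside 0.001 over all genes tested, and 27 of the 32 fold changes were negative. In 9 of the 32 members every juvenile library was below every adult library, which was true of 6.75% of all genes tested, and in 0 members every juvenile library was above, against 6.17%. The 21 members that were not called ranged from *Slc16a3* at -2.16 to *Pfkfb4* at 0.32. At an unadjusted p below 0.05 there were 21 members lower and 0 higher, beside 10.6% and 9.06% of all genes tested. Scaling by library totals gave 15 members lower and 0 higher, beside 6.98% and 0.467% of all genes, and moved the median of all genes to -0.24.

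Glucose entry and its first steps carried some of the largest differences. *Slc2a1*, which encodes the glucose transporter GLUT1, was at 17.1, 17.4, 16.8 and 12.8 CPM in juvenile and 79.8, 23.0, 44.4 and 62.7 CPM in adult libraries. The groups did not overlap, and adult replicate 2 lay nearest to the juvenile range. The log2 fold change was -1.72 ± 0.32 (SE; edgeR adjusted p = 0.0145), equal to a 3.29-fold lower level, and the call was lost without juvenile replicate 1 (adjusted p = 0.0521) or without juvenile replicate 2 (adjusted p = 0.051). *Slc2a3*, encoding GLUT3, overlapped between the ages at 3.34 to 7.25 CPM and was not called.

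Of the 9 enzymes from hexokinase to triose phosphate isomerase, 4 were lower in juvenile cells. *Pfkp*, the platelet-type subunit of phosphofructokinase, which makes the committed step of glycolysis, was at 6.58, 9.18, 9.87 and 5.09 CPM in juvenile and 42.7, 15.2, 21.9 and 41.2 CPM in adult libraries. This was the largest difference among the called members, without overlap: -1.99 ± 0.33 on the log2 scale (SE; edgeR adjusted p = 0.0042). *Pfkl*, the liver-type subunit, followed at -1.31, with 22.6 to 35.6 CPM against 47.1 to 105 CPM. The muscle-type *Pfkm* was close in the 2 ages at 28.8 to 34.4 and 33 to 38 CPM and was not called (log2 fold change -0.18, 95% interval -0.47 to 0.11). *Hk1*, a hexokinase bound to mitochondria, was also lower (45.7 to 68.3 against 71.7 to 120 CPM, log2 fold change -0.82), as was *Tpi1* (67.5 to 88.3 against 87.5 to 233 CPM, -1.13), whose groups overlapped at adult replicate 2. The inducible hexokinase *Hk2* (-0.38), the glucose 6-phosphate isomerase *Gpi1* (-0.37), *Aldoa* (-0.33) and the brain-type aldolase *Aldoc* (-1.52, at 0 to 3.95 CPM) were not called.

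The steps from glyceraldehyde 3-phosphate to pyruvate gave 3 of 5 tested members lower in juvenile cells. *Eno1*, the main enolase, was at 83.2, 74.0, 71.1 and 49.1 CPM in juvenile and 324, 103, 182 and 239 CPM in adult libraries, with no overlap and a log2 fold change of -1.62. *Pgam1*, a phosphoglycerate mutase, was at 8.22, 11, 9.18 and 5.96 CPM against 34.4, 14.9, 20.2 and 21.3 CPM, also without overlap (-1.41). Every adult library thus held more of both transcripts than any juvenile library, and adult replicate 1 held the most. *Pkm* was at 292 to 434 CPM against 432 to 806 CPM (-0.90), the lowest adult library falling just inside the juvenile range. *Pgk1*, the phosphoglycerate kinase that returns the first ATP, did not overlap (13.4 to 26.6 against 31.5 to 106 CPM, log2 fold change -1.72) but was not called (edgeR adjusted p = 0.0697), and *Gapdh* was not called either (-0.55, edgeR adjusted p = 0.082).

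Among the lactate genes, only *Ldha* was called. It was at 213, 181, 213 and 168 CPM in juvenile and 480, 207, 312 and 437 CPM in adult libraries, a log2 fold change of -0.90, and the groups overlapped at adult replicate 2 alone. *Slc16a3*, encoding the lactate exporter MCT4, had the widest contrast of all members, at 9.96, 8.87, 26.6 and 12.5 CPM against 96.6, 23.6, 54.0 and 80.2 CPM. Juvenile replicate 3 lay above adult replicate 2, and the log2 fold change of -2.16 was not called (edgeR adjusted p = 0.0767). *Slc16a1*, encoding MCT1, which moves lactate in either direction, was at 23.1 to 34.3 against 31.0 to 46.4 CPM (-0.42, not called). *Ldhb*, the subunit that favours pyruvate, was not called (log2 fold change 0.02, 95% interval -0.47 to 0.51).

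No gene of pyruvate entry, of fructose 2,6-bisphosphate or of the pentose phosphate pathway was called in the comparison by age. The pyruvate dehydrogenase subunit *Pdha1* gave 0.05 and its inhibitory kinase *Pdk1* gave -0.52 on the log2 scale. *Pfkfb3* (-0.38) and *Pfkfb4* (0.32), which make the phosphofructokinase activator fructose 2,6-bisphosphate, were not called. The oxidative pentose phosphate enzymes were at 0.30 for *G6pdx*, which starts the pathway, 0.15 for *Pgls* and -0.35 for *Pgd*, and the non-oxidative enzymes at -0.23 for *Tkt* and -0.55 for *Taldo1*, all with adjusted p above the threshold and with 95% intervals that reached from -0.97 to 0.74.

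Of the hypoxia genes, *Hif1a*, the regulated subunit of HIF-1, was at 87.0, 82.0, 75.1 and 95.8 CPM in juvenile and 144, 103, 106 and 128 CPM in adult libraries. The groups did not overlap, and the log2 fold change was -0.51. *Bnip3*, a mitochondrial protein that promotes mitophagy and a common HIF target, was at 3.65, 5.88, 5.29 and 5.22 CPM against 27.9, 4.18, 14.1 and 21.0 CPM. Adult replicate 2 lay within the juvenile range and the other 3 adult libraries above it (log2 fold change -1.76 ± 0.45, SE; edgeR adjusted p = 0.0423). *Egln3* was at 0 to 0.822 CPM against 1.24 to 2.33 CPM and was not called (-2.07).

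The adult libraries differed more among themselves than the juvenile ones. The 15 glycolytic enzymes summed to 1020, 972, 1120 and 868 CPM in juvenile replicates 1 to 4 and to 2380, 1170, 1590 and 2080 CPM in adult replicates 1 to 4. Adult replicate 2 was the nearest to the juvenile level. The summed chondrocyte markers took the same order among the adult libraries, at 120000, 33000, 53000 and 70900 CPM, and were at 20000, 24800, 23600 and 8380 CPM in the juvenile libraries. The 9 osteoblast markers summed to 354000, 619000, 563000 and 343000 CPM in adult and 572000 to 840000 CPM in juvenile libraries. Of the 8 chondrocyte markers, 1 was called lower in juvenile cells, beside 3.23% of all genes tested, and none was at 0. Their median log2 fold change, juvenile over adult, was -1.91, beside 0.001 over all genes tested. They ranged from *Matn3* at -2.31 to *Col10a1* at 0.66. The part of chondrocyte RNA in the differences of the glycolytic genes was not tested. In the *c-Myc* libraries the enzyme sum was 2240 and 2390 CPM, and the chondrocyte markers were at 340 and 531 CPM.

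**Figure D2:**
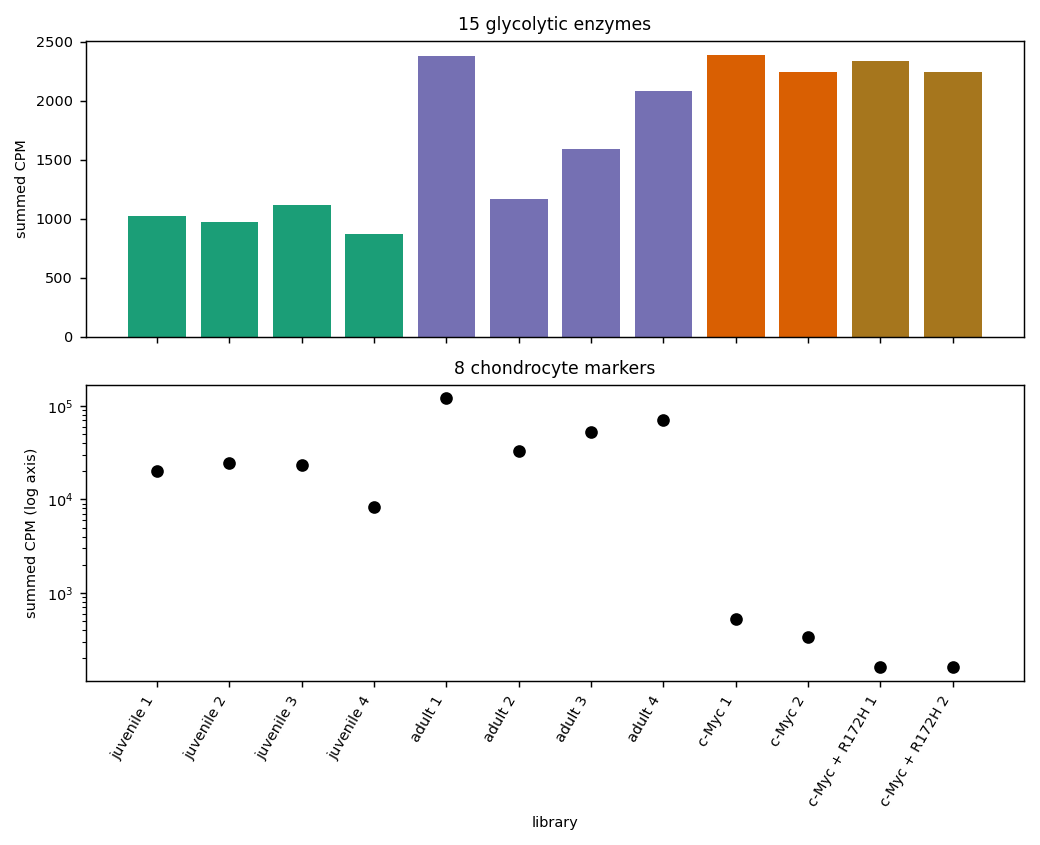
Summed CPM of the 15 glycolytic enzymes (upper, bars) and of the 8 chondrocyte markers (lower, points, log axis) in each of the 12 libraries. Among the adult libraries both sums are highest in replicate 1 and lowest in replicate 2. The 4 *c-Myc* libraries have enzyme sums of 2240 to 2390 CPM and chondrocyte sums of 160 to 531 CPM.

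The age calls depended on single libraries. The number of members called lower was 5, 4, 7 and 6 without juvenile replicates 1 to 4 in turn and 8, 19, 8 and 5 without adult replicates 1 to 4, against 11 with all 8 libraries, and 0 were called higher each time. *Pfkp*, *Pfkl*, *Pgam1* and *Hk1* were called in all 8 of these fits, whereas *Bnip3* was called in 1 of 8, only when adult replicate 2 was left out. *Pkm* was called in 4, *Hif1a* in 3, and *Eno1*, *Tpi1* and *Ldha* in 2 of the 8, with *Slc2a1* in 6, and every one of these fold changes was negative. Over all genes tested, 199 to 541 were called lower in the same 8 fits, against 367 with all libraries.

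**Figure D3:**
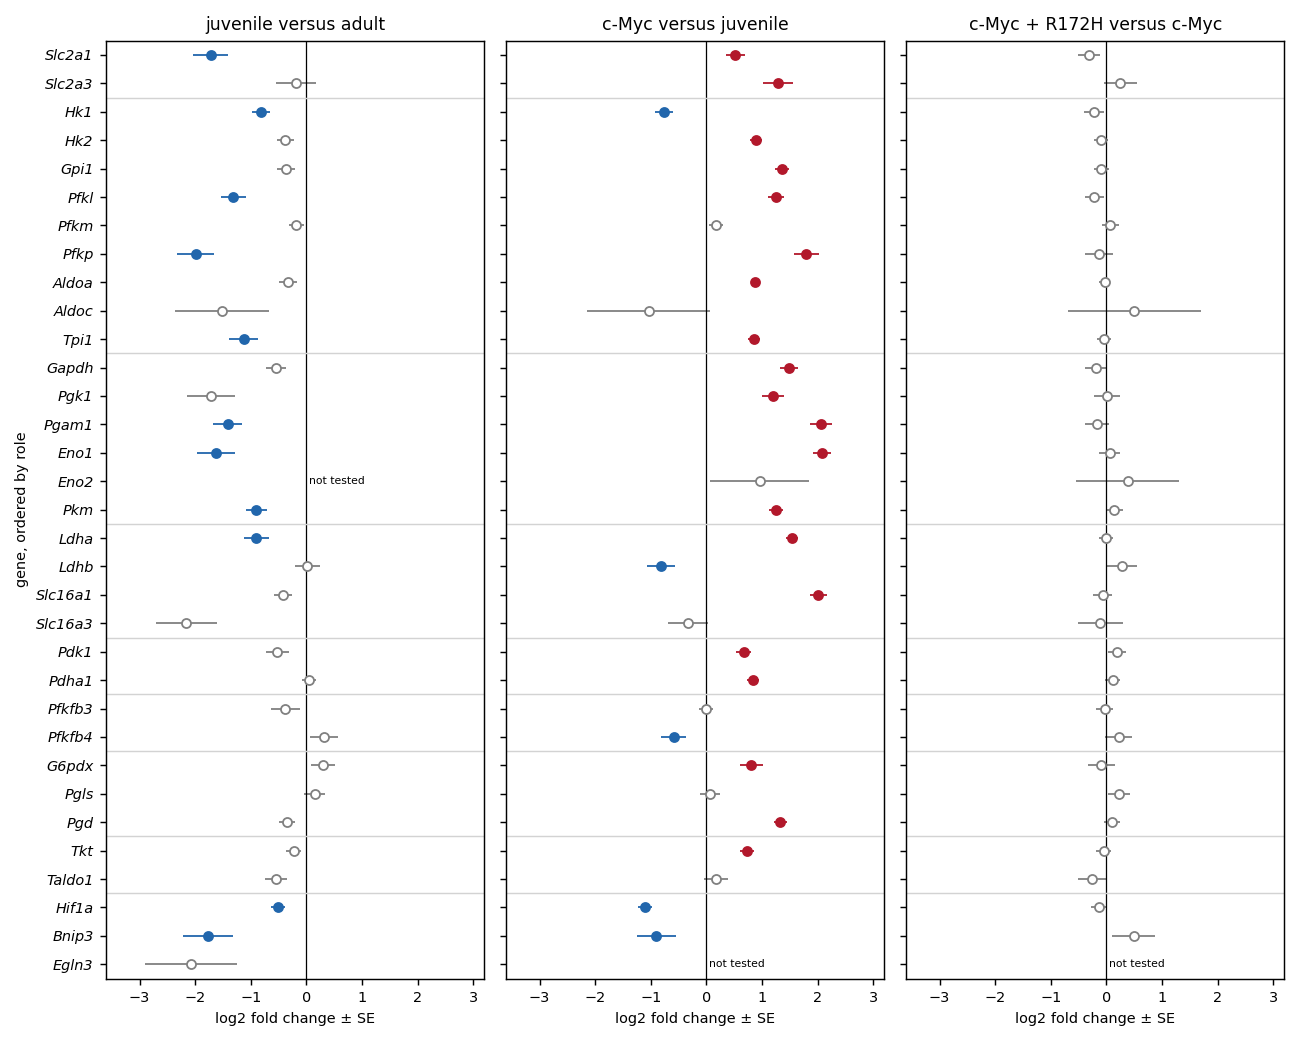
Log2 fold change ± SE of each gene in 3 comparisons (x axis, first group over second); filled blue points were called lower, filled red points higher, and open points were not called. By age the called points all lie left of 0, under *c-Myc* most lie right of it, and between the *c-Myc* groups no point was called; the blue *c-Myc* points of *Hk1* and *Pfkfb4* turn positive when libraries are scaled by their totals.

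The second comparison asked what *c-Myc* induction changed relative to juvenile osteoblasts, the same 4 libraries that served in the comparison by age. Of 32 members tested, 20 rose and 5 fell (edgeR quasi-likelihood test with Benjamini-Hochberg adjustment over 12588 genes), where 28.4% of all genes tested rose and 25.0% fell. When a 2-fold change was required as well, 12 members rose and 1 fell, against 18.4% and 16.0% of all genes. The members' median log2 fold change was 0.85 and that of all genes 0.037. In 22 members both *c-Myc* libraries were above every juvenile library and in 5 below, against 35.7% and 28.7% of all genes tested. Scaling by library totals shifted the median of all genes to 0.87 and gave 24 members higher and 0 lower, beside 54% and 8.87% of all genes. Relative to the median of all genes the members stood at 0.81 under either scaling. Scaling shifts all genes by nearly the same amount, so this equality is given in advance and is no separate check. With *Col1a1*, *Col1a2* and *Gm26917* taken out of the table, 20 members were again higher and 5 lower.

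Both glucose transporters rose. *Slc2a1* was at 24.7 and 22.0 CPM in the *c-Myc* libraries, just above the juvenile maximum of 17.4 CPM (log2 fold change 0.52), and the call was lost without *c-Myc* replicate 1 (edgeR adjusted p = 0.191) or without *c-Myc* replicate 2 (edgeR adjusted p = 0.0681). *Slc2a3* was at 12.6 and 9.70 CPM, more than the 3.34 to 6.03 CPM of the juvenile libraries (1.29).

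In the upper part of glycolysis 6 of 9 enzymes rose and 1 fell. *Pfkp* was at 26.4 and 27.8 CPM, a log2 fold change of 1.80 from the juvenile level, *Gpi1* at 185 and 180 CPM (1.36) and *Pfkl* at 75.1 and 72.8 CPM (1.25). *Aldoa* (309 and 279 CPM, 0.88) and *Tpi1* (143 and 136 CPM, 0.86) rose as well, each library exceeding every juvenile one. The hexokinases moved apart: *Hk2* rose to 79.8 and 98.0 CPM from 46.1 to 49.0 CPM (0.89), while *Hk1* was at 32.8 and 32.0 CPM against 45.7 to 68.3 CPM (-0.76, but 0.09 when libraries were scaled by their totals). *Pfkm* (0.17) and *Aldoc* (-1.04, at 0.411 and 0.51 CPM) were not called.

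In the lower part 5 of 6 members rose. *Eno1* was at 320 and 277 CPM, against 49.1 to 83.2 CPM in juvenile cells, a log2 fold change of 2.08 ± 0.16 (SE; edgeR adjusted p = 4.15e-07). *Pgam1* was at 36.2 and 36.9 CPM, against 5.96 to 11 CPM (2.06 ± 0.19, SE; edgeR adjusted p = 2.26e-06). These were 4.22-fold and 4.17-fold differences, and neither overlapped with juvenile cells. *Gapdh*, often used as a reference gene in expression assays, rose to 246 and 218 CPM from 69.1 to 111 CPM (1.49), *Pkm* to 847 and 793 CPM (1.25) and *Pgk1* to 56.1 and 48.3 CPM (1.20). Only *Eno2*, at 0.548 and 0.567 CPM, was not called (0.96, 95% interval -0.97 to 2.89). A near-identical copy of *Eno1* named *Eno1b* had 383 and 266 counts in the *c-Myc* libraries, 361 and 1 in *c-Myc* + *R172H* replicates 1 and 2, and 0 in juvenile libraries, beside 4880 to 7001 counts of *Eno1* in the same 4 libraries, so the division of reads between the 2 genes is uncertain.

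The lactate genes divided by member. *Ldha* rose to 614 and 530 CPM from 168 to 213 CPM (log2 fold change 1.54). *Slc16a1* rose to 124 and 107 CPM from 23.1 to 34.3 CPM (2.01 ± 0.15, SE; edgeR adjusted p = 3.41e-07), a 4.03-fold difference. *Slc16a3* stayed within the juvenile range at 12.4 and 10.6 CPM (-0.33, 95% interval -1.12 to 0.45) and was not called. *Ldhb* was at 4.80 and 6.69 CPM, below the 9.44 to 10.7 CPM of juvenile cells (-0.82 ± 0.25, SE; edgeR adjusted p = 0.0136), but stood at 0 on the log2 scale when libraries were scaled by their totals, and without *c-Myc* replicate 1 its adjusted p was 0.199. Of the 6 members with an E-box in a promoter window, *Ldha* and *Slc16a1* were thus higher with *c-Myc*, *Bnip3* and *Hif1a* were lower, and *Pfkm* and *Pfkfb3* were not called, while *Pgam1* and *Eno1*, both higher, held no E-box in the windows searched.

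**Figure D4:**
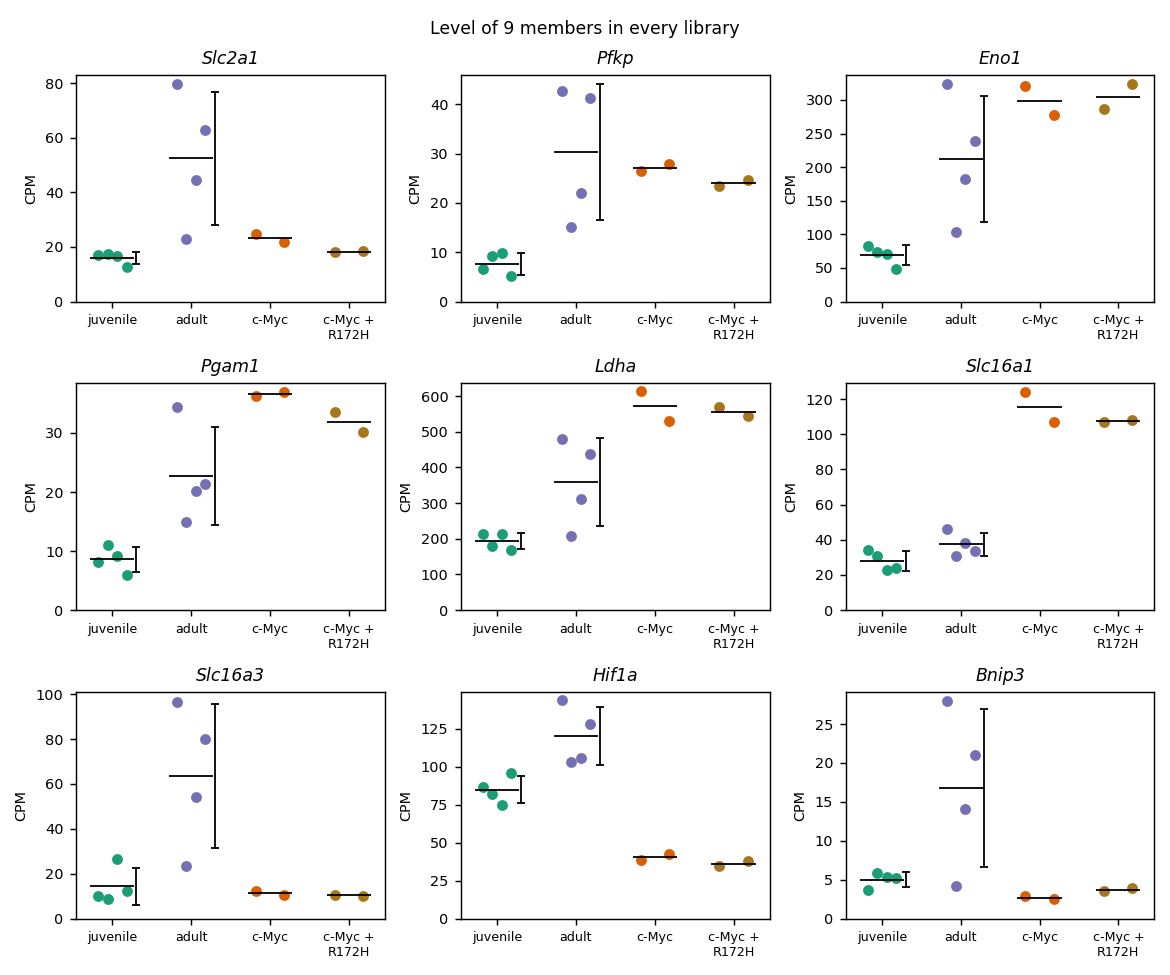
CPM of 9 genes in every library (points), with group means (horizontal lines) and, for the groups of 4, the SD (vertical bars). *Eno1*, *Pgam1*, *Pfkp* and *Ldha* are higher in adult and in *c-Myc* cells than in juvenile cells, *Slc16a1* is high in the *c-Myc* groups at 107 to 124 CPM, and *Slc2a1*, *Slc16a3* and *Bnip3* are high in adult cells, with adult replicate 2 the lowest adult library in each.

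At the entry to mitochondria both genes rose: *Pdha1* to 143 and 134 CPM from 63.7 to 85.6 CPM (log2 fold change 0.84) and *Pdk1* to 50.4 and 43.4 CPM from 23.5 to 32.7 CPM (0.67). These encode the enzyme and a kinase that inhibits it. *Pfkfb3* was at 37.7 and 35.0 CPM and was not called (-0.01), while *Pfkfb4*, at 9.64 and 9.47 CPM against 11.7 to 17.8 CPM, was called at -0.59 but turned to 0.25 when libraries were scaled by their totals. That call was kept in 2 of the 8 fits that left out 1 library, those without juvenile replicate 2 or 3 (edgeR adjusted p = 0.0371 and 0.0133), and lost in the others (edgeR adjusted p 0.0526 to 0.178).

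In the oxidative pentose phosphate pathway *Pgd*, the 6-phosphogluconate dehydrogenase, rose to 122 and 113 CPM from 39.6 to 54.2 CPM (log2 fold change 1.33). *G6pdx* rose to 43.1 and 37.0 CPM from 14.9 to 30.0 CPM (0.81), a call lost without *c-Myc* replicate 1 (edgeR adjusted p = 0.0731). The lactonase *Pgls* between them in the pathway was at 26.5 and 22.0 CPM, inside the juvenile range (0.06). In the non-oxidative arm the transketolase *Tkt* rose to 150 and 129 CPM (0.73), whereas the transaldolase *Taldo1* was at 28.2 and 30.6 CPM and was not called (0.17, 95% interval -0.31 to 0.64).

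Both hypoxia genes tested were lower. *Hif1a* was at 38.3 and 42.5 CPM, against 75.1 to 95.8 CPM (log2 fold change -1.10 ± 0.13, SE; edgeR adjusted p = 1.27e-05), and with library totals the value was -0.27 and was not called. *Bnip3*, at 2.88 and 2.55 CPM against 3.65 to 5.88 CPM, was called at -0.90 ± 0.35 (SE; edgeR adjusted p = 0.0468), and stood at -0.05 with library totals. *Egln3*, at 0.274 and 0.51 CPM, was too low to be tested. The *Bnip3* call was also lost without juvenile replicate 2 (edgeR adjusted p = 0.0789) and without either library of either *c-Myc* group (adjusted p 0.093 to 0.247); the number of members called lower was then 4 without juvenile replicate 2, 2 without *c-Myc* replicate 1, and 3 without *c-Myc* replicate 2 or without *c-Myc* + *R172H* replicate 1 or 2.

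The third comparison asked what *R172H* added to *c-Myc*, with 2 libraries a group. Of 32 members, edgeR called 0 in either direction, where 0.469% of all 12588 genes tested were called. In the same test 0 members had an unadjusted p below 0.05, beside 4.68% of all genes. DESeq2 gave an adjusted p for 27 members and called 0 of them. The members' median log2 fold change was -0.03, beside -0.003 over all genes, and the estimates ranged from -0.32 for *Slc2a1* to 0.50 for the barely detected *Aldoc*. *Ldha* was at 568 and 545 CPM (log2 fold change -0.01, 95% interval -0.28 to 0.27), *Slc16a1* at 107 and 108 CPM (-0.07, -0.45 to 0.30) and *Eno1* at 286 and 324 CPM (0.06, -0.34 to 0.47). These values lay within or next to the range of the *c-Myc* libraries, and their intervals still allow differences of that width in either direction. *Slc2a1*, at 18.1 and 18.5 CPM against 24.7 and 22.0 CPM, had an interval of -0.75 to 0.11, and *Bnip3*, at 3.57 and 3.92 CPM against 2.88 and 2.55 CPM, of -0.35 to 1.33.

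Set against the same juvenile libraries, *c-Myc* + *R172H* cells had 19 of 32 members higher and 2 lower, where 30.4% of all genes tested were called higher and 26.3% lower, and the median of the members was 0.83 beside 0.076 for all genes. In 21 members both libraries were above every juvenile library and in 4 below, against 36.6% and 30.1% of all genes tested. *Eno1* gave 2.14 ± 0.16 (SE; edgeR adjusted p = 2.36e-07), *Slc16a1* 1.94 ± 0.15 (SE; edgeR adjusted p = 3.46e-07) and *Pgam1* 1.89 ± 0.19 (SE; edgeR adjusted p = 4.09e-06) on the log2 scale. The lower members were *Hif1a*, at 34.6 and 37.7 CPM (-1.23 ± 0.13, SE; edgeR adjusted p = 4.49e-06), and *Hk1*, at 25.0 and 29.6 CPM (-0.97 ± 0.16, SE; edgeR adjusted p = 0.000227), which stood at -0.18 and 0.08 when libraries were scaled by their totals. With library totals 26 members were higher and 0 lower, beside 60.9% and 9.29% of all genes, and the median of all genes was 1.11. *Slc2a1* was not called here (0.19), and *G6pdx* was called (0.72) but not without replicate 1 (edgeR adjusted p = 0.0915) or replicate 2 (edgeR adjusted p = 0.0549) of the *c-Myc* + *R172H* group.

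Ratios of isozymes and transporter pairs within a library do not depend on how libraries are scaled. They are log2 ratios of CPM, not corrected for transcript length, so only their changes between libraries are read. *Hk2* over *Hk1* was -0.18 ± 0.22 in juvenile (SD, n = 4) and -0.63 ± 0.23 in adult cells (SD, n = 4), and 1.28 to 1.71 in the 4 *c-Myc* libraries. *Slc16a3* over *Slc16a1* was -1.08 ± 0.95 in juvenile and 0.60 ± 0.74 in adult cells (SD), and -3.39 to -3.32 in the 4 *c-Myc* libraries. These pairs thus placed the *c-Myc* libraries outside the range of all 8 control libraries, on the side of *Hk2* and of *Slc16a1*. *Ldha* over *Ldhb* was 4.27 ± 0.10 in juvenile cells (SD), 5.14 ± 0.81 in adult cells (SD) and 6.30 to 7.00 in the *c-Myc* libraries, above all control libraries. *Pfkp* over *Pfkl* (-2.02 ± 0.31 and -1.37 ± 0.24, SD) and *Slc2a3* over *Slc2a1* (-1.88 ± 0.38 and -3.27 ± 0.96, SD) also differed in mean between juvenile and adult cells. Between juvenile and adult cells none of the 5 pairs passed the exact permutation test (two-sided; p = 0.0571 for 4 pairs and 0.114 for *Ldha* over *Ldhb*; 0.0714 and 0.114 after Benjamini-Hochberg adjustment over 5 pairs), for which 0.0286 is the smallest possible p with 4 libraries a group.

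**Figure D5:**
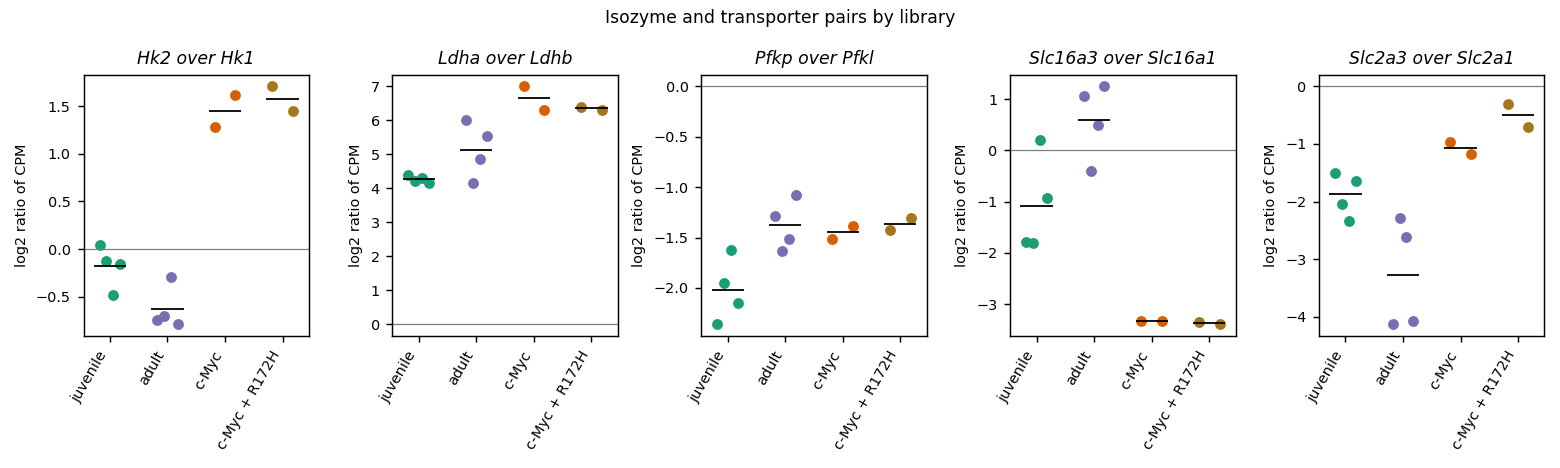
Log2 ratio of CPM within each library (points) for 5 pairs of related genes, with group means (lines). The 4 *c-Myc* libraries lie at 1.28 to 1.71 for *Hk2* over *Hk1* and at -3.39 to -3.32 for *Slc16a3* over *Slc16a1*, outside the range of the 8 control libraries in each.

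Neighbouring pathways were read from fixed lists. Between juvenile and adult cells 3.23% of all genes tested were called lower and 1.89% higher. A list this short can therefore hold no call without differing from all genes. By age, none of 13 tested further glycolytic isozymes and enzymes, none of 10 genes of the pyruvate dehydrogenase complex and none of 6 further pentose phosphate genes was called; their medians were 0.03, -0.08 and -0.23. Lower in juvenile cells were *Emb*, a partner protein of monocarboxylate transporters (log2 fold change -1.17), the malic enzyme *Me1* (-0.94), the hexosamine genes *Gfpt2* (-2.06) and *Gfpt1* (-0.46), and *Ak4*, an adenylate kinase counted among 17 tested further hypoxia response genes (-2.04). The mitochondrial isocitrate dehydrogenase *Idh2* was higher in juvenile cells (0.56) and was the 1 gene called of 20 of the tricarboxylic acid cycle. None was called of 3 gluconeogenic genes, 14 genes of glycogen metabolism, 7 HIF subunits and oxygen sensors, or 4 genes of the MLX network.

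In the comparison of *c-Myc* with juvenile cells, where 28.4% of all genes tested rose and 25.0% fell, 14 of 20 tricarboxylic acid cycle genes rose, led by *Idh3a* (log2 fold change 2.17), *Fh1* (1.52) and *Idh3b* (1.17), and the cytosolic *Idh1* fell (-1.28). Of 7 further pentose phosphate genes 4 rose, among them *Prps2* (2.16) and *Prps1* (2.02), which activate ribose 5-phosphate for nucleotide synthesis, and *Rpia* (1.92), which makes it from ribulose 5-phosphate. The pyruvate dehydrogenase complex had 5 of 10 higher, led by *Dlat* (1.99), and 2 lower, the kinases *Pdk2* (-1.29) and *Pdk4* (-1.10). Of 15 further glycolytic isozymes and enzymes 5 rose and 4 fell, shares near those of all genes. Those that rose included *Tigar* (1.85), a fructose 2,6-bisphosphatase, and *Eno3* (1.81), the muscle enolase. *Pgam5* (1.56) is counted among them although it encodes a mitochondrial protein phosphatase. The transporters *Slc2a12* (-1.99) and *Slc2a10* (-1.87) were among those that fell. Of 18 further hypoxia response genes 3 were higher, led by *Ak4* (2.84), and 6 were lower, led by *Lox* (-2.83), *P4ha2* (-2.37) and *P4ha1* (-1.98), which act on collagen, while 3 of 7 HIF subunits and oxygen sensors fell, *Vhl* most (-1.09). In the hexosamine branch 4 of 7 fell, *Gfpt2* most (-2.56), and 1 rose, and of 5 genes of the glucose-responsive MLX network *Txnip* (-1.67) and *Arrdc4* (-1.74) fell. *Mlxipl* of that network rose from 0 to 0.124 CPM in juvenile libraries to 7.17 and 7.20 CPM, and no fold is given because 3 juvenile libraries were at 0. Glycogen metabolism had 2 of 14 higher, *Pgm2l1* (2.30) and *Gys1* (0.69), and 2 lower, the phosphorylases *Pygl* (-3.53) and *Pygb* (-0.73). *Emb* rose (1.04) while *Slc16a7* (-1.17) and *Bsg* (-0.50), a transporter and a partner protein for lactate, fell, and of 3 gluconeogenic genes *Pck2* fell (-1.29). Skeletal muscle markers summed to 29.2 to 34.9 CPM in the 4 *c-Myc* libraries and 7.67 to 17.0 CPM in control libraries and *Eno3* itself made up 25.4 to 33 CPM of that sum in the former. Between the *c-Myc* groups *Lox* was the 1 gene called of these pathway lists, at -1.21, where 0.469% of all genes tested were called.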

How the data were processed

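The authors deposited 1 table of raw gene counts for 12 libraries. Per the labels and the study's methods, stranded libraries were made from sorted cells, adaptors were trimmed with cutadapt 4.6, reads were mapped to mm10 with STAR 2.7.11a, and uniquely mapped reads were counted per gene with HTSeq 2.0.5, so reads shared with near-identical copies were dropped. The deposited counts were tested with edgeR 4.0.16 (R 4.3.3): TMM factors, filterByExpr, quasi-likelihood F test, Benjamini-Hochberg adjustment over all genes tested, calls at adjusted p below 0.05. Juvenile and adult libraries were fitted together, and juvenile and both *c-Myc* groups together, so comparisons with juvenile cells share those 4 libraries. CPM used TMM factors over all 12 libraries. Nothing in the labels says which *c-Myc* libraries came from separate mice, so p-values measure the spread between libraries.

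The members and the other gene lists were chosen with earlier results of these data known. Full statistics are given for up to 3 called members that rose most and 3 that fell most per comparison, and all 33 members are accounted for. Pair ratios were compared by an exact permutation test. Scripts were tested on simulated counts. Alternatives were other normalizations, filters, DESeq2 1.42.0, other sets of libraries, a replicate block and leaving out each library. Gene positions and exon lengths came from GENCODE vM21 (GRCm38), promoters from RefSeq (GRCm38.p6).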

Additional observations from a re-analysis of the deposited data

Results flagged for a closer look

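In 4 of the 66 groups of 4 libraries examined (33 genes, juvenile and adult), 1 library stood apart by Dixon's test, and chance gives about 1 such group in 20. *Slc2a1* was at 12.8 CPM in juvenile replicate 4, below 16.8 to 17.4 CPM in the others. *Gapdh* was at 111 CPM in juvenile replicate 1, above 69.1 to 73.2 CPM. *Pfkfb4* was at 6.58 CPM in adult replicate 1, below 12.4 to 13.3 CPM. *Pgls* was at 25.9 CPM in adult replicate 4, above 18.5 to 19.2 CPM.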

How the results depend on the processing

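With each library left out in turn, 4 to 19 members were lower in juvenile than in adult cells and 2 to 5 were lower with *c-Myc* than in juvenile cells, and the median of the members between the *c-Myc* groups ran from -0.10 to 0.02; a group left with 1 library was assumed to vary like the others. Scaling by library totals gave 0 members lower in either *c-Myc* group against juvenile cells, and medians of 1.69 for *c-Myc*, 1.88 for *c-Myc* + *R172H*, and 0.18 between them. *Hk1* then stood at 0.08 in *c-Myc* + *R172H* cells, the reverse of its call. With no filter on low counts, with all 12 libraries in 1 fit, or with only the 2 groups compared, 3 members each were lower with *c-Myc*. With a replicate block, which treats libraries of the same number as pairs, 10 members were lower by age, where *Bnip3* was not called (edgeR adjusted p = 0.14), 20 were higher and 4 lower with *c-Myc*, 19 higher and 3 lower with *c-Myc* + *R172H* than in juvenile cells, and 0 were called between the *c-Myc* groups. Deviations from the group means correlated at -0.05 to 0.04 between libraries of the same number where juvenile cells were involved. Between the *c-Myc* groups the value was 0.14, which with 2 libraries a group is necessarily the same for both numbers. Replicate 1 of each *c-Myc* group was low and replicate 2 high in *Xist*, and the part of sex in that value was not tested. The numbers are those of the sample titles, and the adult library names carry other numbers. The labels tie the numbers to no shared litter or day. DESeq2 called 14 members lower by age. The cause of these changes was not tested. Of the 11 age calls, 4 held in every alternative, as did 18 of the 25 *c-Myc* calls. With 2 libraries a group, differences inside the intervals given cannot be seen.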
